A study of Mus musculus with 49 samples.

Results

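The 36 autophagy genes of the mouse described here were chosen by name alone: the protein-coding genes whose symbols begin with Atg and a digit, Gabarap, Map1lc3 or Wipi and a digit, the kinases Ulk1 to Ulk4, and Becn1, Sqstm1, Pik3c3, Rb1cc1, Tfeb and Optn. They were 36 of 54838 gene rows in the count tables, of which 21921 are protein-coding in the GENCODE annotation. RNA was sequenced from 49 single late 2-cell embryos of the F1(C57BL/6JxCBA/H) strain, collected 48 h after the hCG injection that induces ovulation, with the Smart-seq+5' protocol, which keeps the 5' ends of transcripts. In all 4 groups zygotes first received an antibody and, 4 h later, mRNA for mCherry-Trim21, the ubiquitin ligase that in Trim-Away sends an antibody-bound protein to degradation. Loss-of-function (LOF) embryos received an antibody against TBP (9 embryos) or FOXJ3 (17 embryos), and CONTROL embryos received mouse IgG for TBP (10 embryos) or rabbit IgG for FOXJ3 (13 embryos). The study asked whether these transcription factors regulate transposable elements, and with them genes, at genome activation. The comparison of each depletion with its own IgG was the one its design implies. Trim-Away removes protein and not RNA, so that no RNA level could check the depletion itself. The paper checked it by immunostaining of a few embryos from every collection. Each antibody was represented by 1 IgG control of its own species.

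After the study's thresholds on reads, detected genes, mitochondrial reads and ERCC spike-in reads, 47 embryos remained, 9 TBP LOF with 9 of their CONTROL and 16 FOXJ3 LOF with 13 of their CONTROL. They held 1103569 to 5434808 counted reads each. Tbp mRNA had medians of 58.7 CPM, counts scaled to a library of 1000000 reads, in TBP LOF and 137 CPM in TBP CONTROL embryos, and Foxj3 mRNA 134 CPM in FOXJ3 LOF and 126 CPM in FOXJ3 CONTROL. Scaled to ERCC, Tbp mRNA also fell upon TBP LOF (log2 fold change -2.14, adjusted p = 5.3e-06, edgeR's quasi-likelihood test). The injected mCherry-Trim21 had medians of 1390 CPM in TBP LOF and 770 CPM in its CONTROL, and 351 CPM in FOXJ3 LOF and 839 CPM in its CONTROL. All 10 fixed markers of the late 2-cell stage had reads in every group, and their summed level had a median of 1032 CPM in TBP LOF and 325 CPM in TBP CONTROL embryos (ranges 479 to 1229 and 232 to 762 CPM). CPM is a share of the reads, so the marker levels in this paragraph do not measure RNA per embryo. The list holds Zscan4c, Zscan4d, Eif4e3 and Zfp352, which the paper, scaling to ERCC, reported as not affected upon TBP loss. The 6 fixed oocyte and zygote markers had summed medians of 2447 CPM (1717 to 3155) in TBP LOF and 1307 CPM (740 to 2239) in TBP CONTROL. In the FOXJ3 experiment the late 2-cell markers had summed medians of 498 CPM (241 to 816) in LOF and 630 CPM (271 to 1150) in CONTROL, and the oocyte and zygote markers 1567 CPM (801 to 2594) and 1878 CPM (788 to 4003). Of the 7 cumulus cell markers, Has2, Ptx3 and Fshr had no read in the TBP experiment and the list summed to at most 70.7 CPM in any embryo of the 4 groups, and the 6 markers of later lineages summed to at most 120 CPM. The part of these marker levels in the results below was not tested.

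Autophagy is the route by which a cell encloses its own cytoplasm, organelles or protein aggregates in a double membrane, the autophagosome, and delivers them to the lysosome. The ULK kinase complex starts the process, a class III PI3-kinase marks the membrane with PI3P, ATG9 vesicles and ATG2 lipid transfer proteins supply lipid, and 2 ubiquitin-like conjugation systems attach ATG8 proteins (the LC3 and GABARAP families) to phosphatidylethanolamine in the growing membrane. ATG4 proteases prime and release ATG8 proteins, and cargo receptors link the cargo to them. In mammals fertilisation is followed by a wave of autophagy that breaks down maternal proteins, and mouse embryos that lack both maternal and zygotic Atg5 arrest before the blastocyst stage.

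Promoter windows from RefSeq (GRCm38.p6, 250 bases before to 50 bases after the annotated start) were at hand for 29 of the 36 genes, in 33 windows. They were read because TBP binds the TATA box, TFEB binds the core CACGTG of the CLEAR element and forkhead factors such as FOXJ3 bind sites of the type GTAAACA. Letters were searched on both strands, and a match is a description and not a bound site. TATAAA stood in 2 of 33 windows of the autophagy genes (6.06%, against 13.6% of all 32851 windows), namely in those of Sqstm1 and Atg4a. The Sqstm1 match lay across the RefSeq start itself (-1 to 5), and the Atg4a match lay 151 to 146 bases before a start. CACGTG stood in 4 windows (12.1%, against 7.15% of all windows), those of Atg3, Atg5, Atg7 and Atg14, and GTAAACA in 0 (against 3.65% of all windows). The upstream parts that lie outside every annotated exon are shown for Atg3, which fell the most upon TBP LOF and had CACGTG at 2 places, for Atg5, which has the same letters next to its start and did not pass the test, and for Gabarapl2, an ATG8 gene that fell and has none of the 3 motifs. All are on the plus strand of GRCm38, 5' to 3', with CACGTG in capitals.
Atg3, chr16:45158707-45158784, 122 to 45 bases before the RefSeq start: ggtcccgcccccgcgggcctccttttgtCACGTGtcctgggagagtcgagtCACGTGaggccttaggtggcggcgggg
Atg5, chr10:44268089-44268338, the 250 bases before the start: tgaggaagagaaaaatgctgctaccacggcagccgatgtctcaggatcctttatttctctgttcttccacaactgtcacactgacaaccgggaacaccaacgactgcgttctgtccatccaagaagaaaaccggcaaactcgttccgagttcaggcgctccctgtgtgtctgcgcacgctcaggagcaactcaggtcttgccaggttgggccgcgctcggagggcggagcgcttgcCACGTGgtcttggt
Gabarapl2, chr8:111940453-111940702, the 250 bases before the start: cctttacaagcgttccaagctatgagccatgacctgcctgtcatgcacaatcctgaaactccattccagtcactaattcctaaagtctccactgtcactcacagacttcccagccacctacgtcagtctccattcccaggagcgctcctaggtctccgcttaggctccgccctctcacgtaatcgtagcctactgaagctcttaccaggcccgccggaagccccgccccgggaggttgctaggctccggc
In this part of the Atg3 promoter the copies of CACGTG lay 94 to 89 and 71 to 66 bases before the start. The Atg5 copy lay 14 to 9 bases before it. The Atg7 and Atg14 copies lie inside the genes as GENCODE draws them, since the RefSeq starts used for them lie downstream of those of GENCODE.

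Upon TBP LOF, 22 of the 34 autophagy genes tested fell and 0 rose, when reads were scaled to the ERCC spike-ins (edgeR's quasi-likelihood test, adjusted p under 0.05 over all genes and transposable element families). The falls ranged from 1.71-fold in Ulk1 to 11.3-fold in Atg3. Genes of the ATG12 and ATG8 conjugation systems and the ATG8 genes themselves made up 10 of the 22, and were 7 and 5 of the 34 tested. Becn1, Atg5, which is of the conjugation systems, and the cargo receptors Sqstm1 and Optn did not pass the test. Of all 18447 genes tested, 29.8% fell and 1.4% rose. The median log2 fold change was -1.34 over the autophagy genes and -0.70 over all genes. Genes with more reads are called more often, and among the 7683 genes kept by edgeR's stricter filter on low counts 52.7% fell, against 21 of 24 autophagy genes. ERCC transcripts were added to the lysis buffer, so this scale counts less RNA per embryo as well as a smaller share of it. All embryos were collected at the late 2-cell stage, and their cells were not counted here. ERCC reads made up 2.67% to 6.12% of the reads in TBP LOF and 2.22% to 3.26% in TBP CONTROL embryos.

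**Figure D1:**
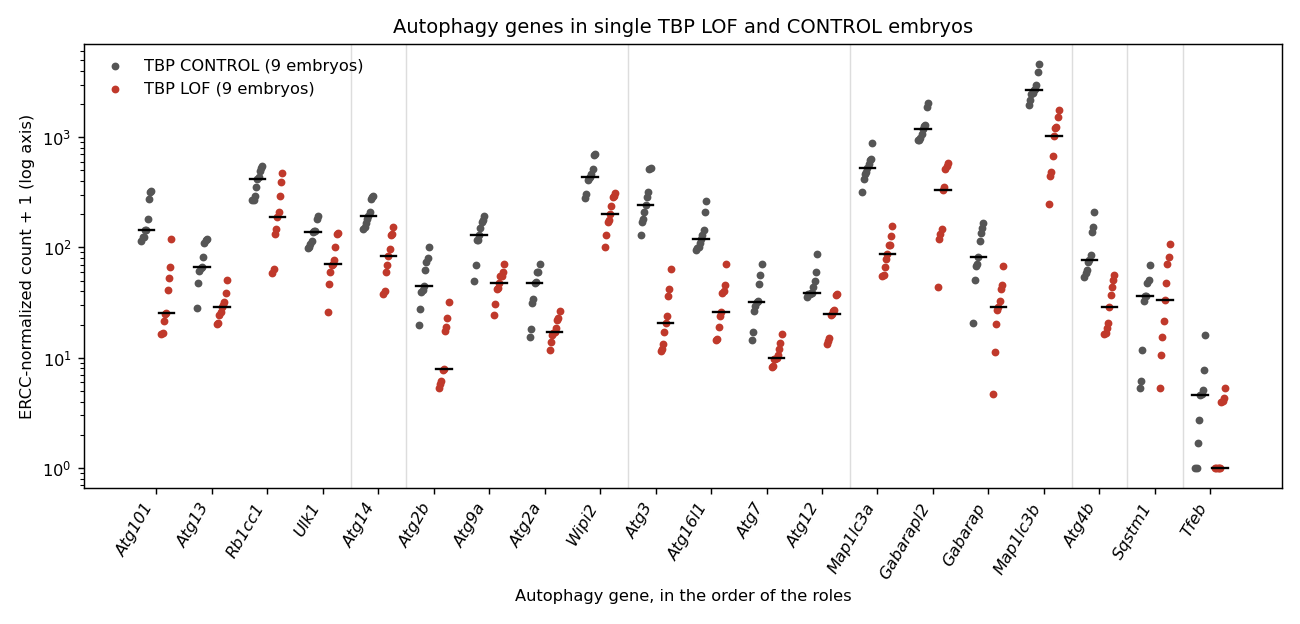
ERCC-normalized counts (plus 1, log axis) of the 20 autophagy genes that fell with a mean of at least 20 normalized counts or had the most reads of their role, in 9 TBP CONTROL embryos (grey) and 9 TBP LOF embryos (red). Each point is an embryo, black lines are medians and vertical lines part the roles, and the 2 groups do not overlap for Atg3, Atg16l1, Map1lc3a, Gabarapl2 and Map1lc3b.

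The conjugation genes held the lowest log2 fold change of the autophagy genes called, that of Atg3. Atg3 (ENSMUSG00000022663.3, chr16:45158785-45188538), the E2-like enzyme that transfers ATG8 proteins to the lipid, had 10.4 to 62.3 normalized counts in the LOF embryos (median 19.5) and 129 to 528 in CONTROL (median 243). Every LOF embryo was below every CONTROL embryo, and the log2 fold change of LOF over CONTROL (log2FC) was -3.49 (SE 0.37, adjusted p = 3.5e-10). Atg16l1 carries the conjugate of ATG12 and ATG5 to the membrane and decides where lipidation takes place. It had a median of 24.9 counts in LOF (13.5 to 69.9) and 118 in CONTROL (93.5 to 264), again without overlap (log2FC -2.18, SE 0.34, adjusted p = 8.8e-07). Atg7, the E1-like enzyme that activates ATG12 and the ATG8 proteins alike, had 7.32 to 15.4 counts in LOF (median 9.02) and 13.6 to 69.4 in CONTROL (median 31.2). Its log2FC was -1.80 (SE 0.39, adjusted p = 0.00023), and the groups overlapped in their closest embryos. Atg12, the ubiquitin-like protein of the first system, went from a CONTROL median of 37.9 (34.3 to 86.8) to a LOF median of 24.2 (12.3 to 36.8), with a log2FC of -1.003 (SE 0.34, adjusted p = 0.020). Its call was lost in 1 of the 18 fits that left out an embryo each, the one without CONTROL embryo 6. The E2-like Atg10 and the Atg16l1 paralog Atg16l2 were called with few reads (log2FC -2.07 and -2.19, adjusted p = 0.049 and 0.023), and their calls held in 7 and 16 of the same 18 fits. The call of Atg10 was also lost without a filter on low counts (adjusted p = 0.072). Atg5, which ATG12 is joined to, had medians of 88.6 in LOF (60.4 to 168) and 145 in CONTROL (86.7 to 202) and did not pass (log2FC -0.55, SE 0.29, adjusted p = 0.15). Of the 7 genes of this role, 6 fell, beside 29.8% of all genes and 52.7% of those kept by the stricter filter.

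All 5 ATG8 genes had negative log2FC and 4 of them passed the test, where 29.8% of all genes and 52.7% of those kept by the stricter filter fell. Map1lc3b (ENSMUSG00000031812.16, chr8:121590361-121598760), which encodes LC3B and had the most reads of the autophagy genes, had 246 to 1768 counts in LOF (median 1018) and 1960 to 4588 in CONTROL (median 2703). The ranges did not meet, and the log2FC was -1.61 (SE 0.32, adjusted p = 7.2e-05). Map1lc3a, its LC3A paralog, fell from a CONTROL median of 528 (319 to 883) to a LOF median of 85.8 (54.2 to 157), a log2FC of -2.56 (SE 0.30, adjusted p = 3.5e-09). For Gabarapl2, a GABARAP family member also known as GATE-16, the LOF embryos held 42.5 to 578 counts (median 328) and the CONTROL embryos 932 to 2057 (median 1193). This was the third ATG8 gene whose groups did not overlap (log2FC -2.07, SE 0.35, adjusted p = 4.0e-06). Gabarap, the founding member of its family, had medians of 28.01 in LOF (3.66 to 66.4) and 81.3 in CONTROL (19.9 to 167) with overlapping groups (log2FC -1.64, SE 0.38, adjusted p = 0.00046). Gabarapl1 was almost unread, with 0 to 0.732 counts in LOF and 0 to 1.81 in CONTROL, and did not pass (log2FC -2.43, adjusted p = 0.056). Across all genes tested, 6.96% had every LOF embryo below every CONTROL embryo, against 5 of the 34 autophagy genes. A gene without a read in some CONTROL embryo cannot meet this rule, so genes with few reads lower the share of all genes. The share among genes kept by the stricter filter was not computed, and the count is not read as an excess.

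Of the ULK kinases and the other genes of the ULK complex, which opens the pathway, 4 of the 6 tested fell. The lowest log2FC were those of Atg101 and Atg13. This count stands beside 29.8% of all genes and 52.7% of those kept by the stricter filter. Atg101, which stabilises ATG13, went from 143 (114 to 325) in CONTROL to 24.7 (15.4 to 117) in LOF. Its log2FC was -2.22 (SE 0.36, adjusted p = 1.5e-06), and LOF embryo 6 alone overlapped CONTROL. Atg13, the subunit that links ULK1 to the rest of the complex, had medians of 27.6 in LOF (19.1 to 49.2) and 64.8 in CONTROL (27.1 to 118), a log2FC of -1.41 (SE 0.33, adjusted p = 0.00055). Rb1cc1, the scaffold also called FIP200, held 57.1 to 470 counts in LOF (median 186) and 268 to 550 in CONTROL (median 412), and the groups overlapped (log2FC -0.89, SE 0.32, adjusted p = 0.028). The call of Rb1cc1 held in 13 of the 18 fits without an embryo. Ulk1, the kinase itself, had medians of 69.2 in LOF (25.1 to 134) and 137 in CONTROL (97.0 to 194), a log2FC of -0.77 (SE 0.31, adjusted p = 0.047), close to the threshold and past it in 6 of those 18 fits. Its call was also lost without a filter on low counts (adjusted p = 0.065). Ulk2, its close paralog, had a log2FC of -0.92 (adjusted p = 0.088; it passed with DESeq2 and with filterByExpr, adjusted p = 0.026 and 0.033) and Ulk4, a pseudokinase of the family, -0.24 (adjusted p = 0.81). Ulk3, with 22 reads in all 47 embryos, was not tested, since fewer than 25% of the embryos of a fit had a read. In the TBP experiment these were 0 LOF and 2 CONTROL embryos.

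Among the class III PI3-kinase genes the lipid kinase and its autophagy-specific subunit fell, and Becn1 did not pass the test. Atg14, which directs the kinase complex to the site where autophagosomes form, had 36.6 to 151 counts in LOF (median 82.9) and 147 to 292 in CONTROL (median 193). The log2FC was -1.27 (SE 0.30, adjusted p = 0.00079) and only the closest embryos of the groups overlapped. Pik3c3, the catalytic subunit VPS34, had fewer reads, with medians of 3.18 in LOF and 19.1 in CONTROL (log2FC -1.996, SE 0.58, adjusted p = 0.0051). Becn1 (ENSMUSG00000035086.13, chr11:101285952-101302286), the scaffold known as Beclin, had 40.5 to 104 counts in LOF (median 80.4) and 44.9 to 124 in CONTROL (median 74.1). Its groups overlapped over nearly their whole range (log2FC -0.12, SE 0.30, adjusted p = 0.82).

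Of the genes for PI3P readers, lipid transfer and ATG9 vesicles, 4 of 6 fell, beside 29.8% of all genes and 52.7% of those kept by the stricter filter. Wipi2 reads PI3P and recruits ATG16L1. It had medians of 202 in LOF (99.6 to 311) and 430 in CONTROL (279 to 696), a log2FC of -1.15 (SE 0.29, adjusted p = 0.0013), and the groups overlapped slightly. Atg9a, the lipid scramblase of the vesicles that seed the membrane, went from 130 (48.8 to 192) to 46.7 (23.4 to 69.8), a log2FC of -1.47 (SE 0.31, adjusted p = 0.00016). The lipid transfer protein Atg2b had a LOF median of 6.89 (4.36 to 31.1) and a CONTROL median of 43.3 (18.96 to 101), with a log2FC of -2.04 (SE 0.40, adjusted p = 4.8e-05). Its paralog Atg2a had medians of 15.97 (10.7 to 25.4) and 47.02 (14.4 to 69.4), with a log2FC of -1.28 (SE 0.36, adjusted p = 0.0042). Both paralogs thus passed the test, each with overlapping groups. The second PI3P reader Wipi1 (log2FC -0.63, adjusted p = 0.51) and Atg9b (-1.72, adjusted p = 0.23) did not pass and had few reads.

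The ATG4 proteases, which trim ATG8 proteins before conjugation and release them from the membrane, gave calls for 2 of the 4 tested. Of all genes 29.8% fell, and of those kept by the stricter filter 52.7%. Atg4b, the member with the most reads here, had medians of 27.6 in LOF (15.4 to 55.6) and 76.4 in CONTROL (52.9 to 211), a log2FC of -1.71 (SE 0.34, adjusted p = 7.2e-05). The highest LOF embryo just reached the lowest CONTROL embryo. Atg4d also fell (-1.21, adjusted p = 0.024, in 17 of the 18 fits without an embryo), whereas Atg4a (0.52, adjusted p = 0.64) and Atg4c (0.71, adjusted p = 0.68) had positive log2FC that did not pass. Atg4a-ps, an Atg4a copy listed as protein-coding, had 9 reads in all 47 embryos and was not tested upon TBP LOF. Upon FOXJ3 LOF it was tested and did not pass (log2FC -0.79, adjusted p = 0.96). The sources used here do not say how reads shared by such copies were divided.

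Neither cargo receptor passed the test on this scale. Sqstm1, the ubiquitin-binding receptor p62, had 4.30 to 106 counts in LOF (median 32.4) and 4.28 to 68.3 in CONTROL (median 35.2), with wide overlap (log2FC 0.39, SE 0.44, adjusted p = 0.56). Optn, optineurin, had a log2FC of 0.52 (adjusted p = 0.63) from few reads. Tfeb, the transcription factor that drives lysosomal and autophagy genes, was barely read, with 0 to 4.35 counts in LOF (median 0) and 0 to 15.2 in CONTROL (median 3.61), and did not pass (log2FC -1.13, SE 0.83, adjusted p = 0.34).

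The choice of scale set how many of the genes were called. With edgeR's TMM scaling, which assumes that most genes do not change, the log2FC of all genes were centred at 0.13 in place of -0.70. 8 autophagy genes then fell (12.9% of all genes fell) and 2 rose (13.2% of all genes rose). The 8 were Atg3, Map1lc3a, Atg101, Atg16l1, Gabarapl2, Atg2b, Atg4b and Map1lc3b. Atg3 had a log2FC of -2.64 on this scale (SE 0.27, adjusted p = 6.4e-08). Becn1 (0.82, adjusted p = 0.0079) and Sqstm1 (1.31, adjusted p = 0.033) were the 2 that rose relative to the other genes, although neither passed on the ERCC scale. Ulk1, called on the ERCC scale, was at 0.03 with TMM.

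**Figure D2:**
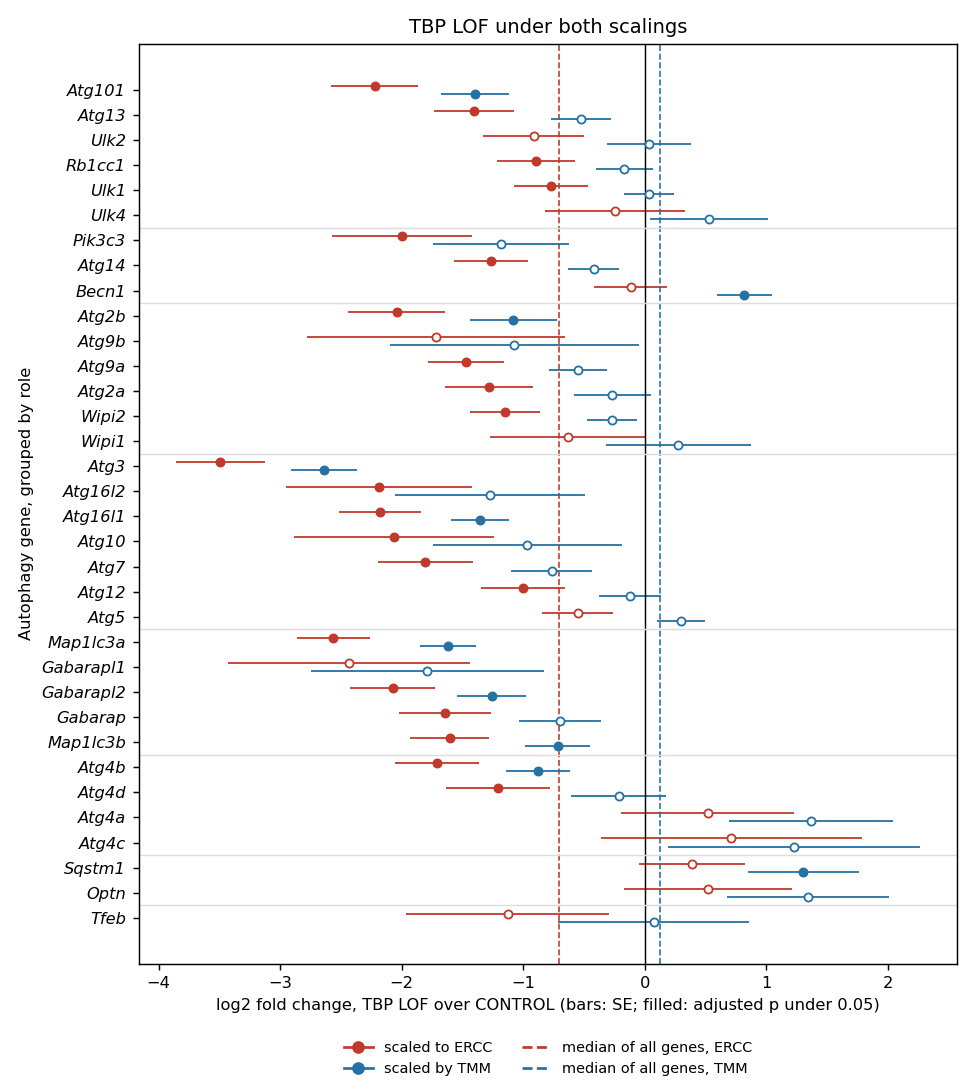
log2 fold changes of the 34 tested autophagy genes, TBP LOF over CONTROL (9 and 9 embryos), with bars for 1 SE, scaled to ERCC (red) and by TMM (blue), where filled points passed an adjusted p of 0.05 and dashed lines are the medians of all genes. Red points sit to the left of the blue ones, 22 red points are filled and 10 blue ones, and Becn1 and Sqstm1 are filled in blue, to the right of 0, and open in red.

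A measure that needs no spike-in gave the same order of the TBP groups. The reads of the 36 genes together made up 0.115% to 0.357% of the gene reads in TBP LOF embryos (median 0.224%) and 0.361% to 0.553% in TBP CONTROL (median 0.439%). The highest LOF embryo lay just below the lowest CONTROL embryo. In the FOXJ3 experiment the share was 0.322% to 0.640% in LOF (median 0.463%) and 0.183% to 0.930% in CONTROL (median 0.531%), with the LOF range inside the CONTROL range. Map1lc3b and Gabarapl2 hold most of these reads, so that the sum follows them. The TBP and FOXJ3 embryos come from separate experiments, with different antibodies and libraries, whose parts in a difference between their CONTROL groups cannot be told apart.

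**Figure D3:**
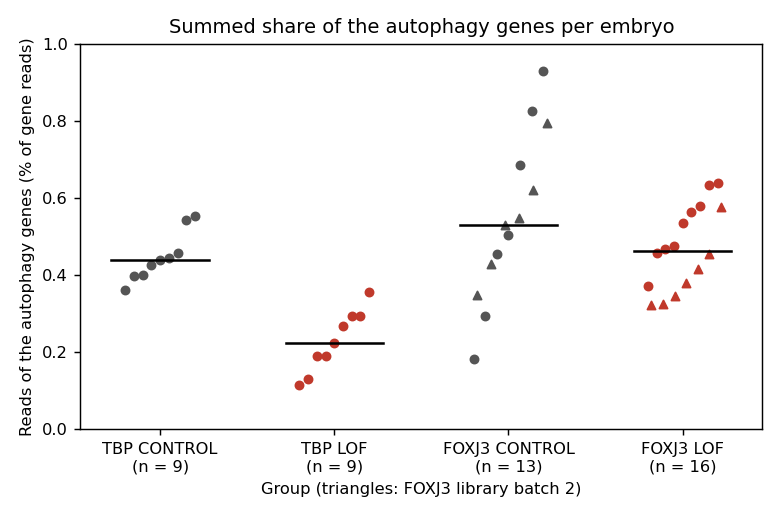
Reads of the 36 autophagy genes as a percentage of all gene reads in each of 47 embryos, by group, with CONTROL in grey, LOF in red, medians as black lines and triangles for FOXJ3 library batch 2. TBP LOF embryos (0.115% to 0.357%) lie below TBP CONTROL (0.361% to 0.553%), and the FOXJ3 groups overlap.

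The levels of 4 of the genes are given across the 4 groups in CPM of all counted reads, Atg3 and Gabarapl2, which fell upon TBP LOF, and Becn1 and Sqstm1, which did not pass the test, a choice made after their values were seen. Atg3 had medians of 12.6 CPM in TBP LOF (8.31 to 39.0), 106 CPM in TBP CONTROL (57.8 to 201), 129 CPM in FOXJ3 LOF (46.5 to 233) and 115 CPM in FOXJ3 CONTROL (16.3 to 304). The last 3 ranges overlapped widely, and of them 2 FOXJ3 CONTROL embryos reached down into the TBP LOF range. Gabarapl2 had medians of 246 CPM in TBP LOF (32.1 to 345), 567.7 CPM in TBP CONTROL (415 to 781), 614 CPM in FOXJ3 LOF (375 to 990) and 640 CPM in FOXJ3 CONTROL (117 to 967). Becn1 had 44.8 CPM in TBP LOF (33.7 to 78.6), 35.3 CPM in TBP CONTROL (18.97 to 47.03), 48.2 CPM in FOXJ3 LOF (31.3 to 80.8) and 66.6 CPM in FOXJ3 CONTROL (31.5 to 87.6), with all 4 ranges overlapping. Sqstm1 had 32.2 CPM in TBP LOF (4.10 to 68.3) and medians of 12.8 to 15.8 CPM in the other groups. Ulk1 fell on the ERCC scale, but its levels in CPM lay close together, with medians of 48.7 CPM in TBP LOF and 50.1 to 59.1 CPM in the other groups. These levels are given as a description, with no test across experiments.

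Other genes of the pathway were counted from 4 lists. Of the other PI3-kinase, membrane and fusion factors, 9 of 19 tested fell and 0 rose upon TBP LOF (median log2FC -1.11), beside 29.8% of all genes and 52.7% of those kept by the stricter filter. They were led by Wdr45b, a PI3P-binding relative of the WIPI proteins, which went from a median of 207 to 45.3 counts (log2FC -2.41, adjusted p = 4.1e-08), and Vamp8, a SNARE of autophagosome fusion, from 59.9 to 11.7 (-2.09, adjusted p = 1.8e-05). Of the other cargo receptors, 7 of 13 fell and 1 rose, beside 29.8% and 1.4% of all genes. The share that fell was near the 52.7% of genes kept by the stricter filter. Calcoco2, the receptor NDP52, went from 419 (294 to 741) to 39.7 (18.9 to 139), a log2FC of -3.03 (SE 0.35, adjusted p = 2.3e-09), and Bnip3l, a mitophagy receptor, from 351 to 105 (log2FC -1.67, adjusted p = 4.7e-06). Fundc1, a receptor in the outer mitochondrial membrane, was the 1 that rose, with medians of 165 in LOF (26.3 to 395) and 87.9 in CONTROL (30.3 to 141) and a log2FC of 0.96 (SE 0.35, adjusted p = 0.030). These calls in both directions are given as a description of the named receptors.

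For the genes of mTORC1 and AMPK control, the nutrient and energy sensors upstream of ULK1, 8 of 24 fell and 0 rose (median log2FC -0.80). This was close to the 29.8% of all genes and below the 52.7% of those kept by the stricter filter. The AMPK subunit genes Prkab1 (from 101 to 22.1 counts, log2FC -2.44, adjusted p = 9.2e-08) and Prkag1 (from 61.4 to 11.6, -2.21, adjusted p = 2.0e-05) led this list. Of the lysosomal genes and their transcription factors, 19 of 33 fell and 0 rose (median -0.92), again beside 29.8% of all genes and 52.7% of those kept by the stricter filter. Here Atp6v1d, a subunit of the proton pump that acidifies the lysosome, went from 147 to 31.0 (log2FC -2.41, adjusted p = 2.4e-07), and Psap, the precursor of the saposins, from 262 to 73.5 (-1.84, adjusted p = 4.5e-06). With TMM scaling 6, 3, 3 and 4 genes of the 4 lists fell and 2, 1, 4 and 1 rose, in the order given, beside 12.9% and 13.2% of all genes.

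Upon FOXJ3 LOF no autophagy gene passed the test. Of 35 tested, 0 were called with edgeR (3 had an unadjusted p under 0.05, and DESeq2 also called 0), where 2 of 18626 genes were called lower (0.0107%) and 0 higher (0%). The median log2FC was -0.02 and the smallest adjusted p 0.53. Gabarap came nearest, with 42.3 to 156 counts in LOF (median 78.9) and 43.8 to 193 in CONTROL (median 122), overlapping almost wholly (log2FC -0.62, SE 0.18, unadjusted p = 0.0015, adjusted p = 0.53). Atg4c had 6 reads in all LOF and 27 in all CONTROL embryos (log2FC -2.15, SE 0.80, adjusted p = 0.78). Becn1 had medians of 97.8 in LOF (73.0 to 147) and 126 in CONTROL (68.9 to 212) and a log2FC of -0.33 (SE 0.15, adjusted p = 0.86). Within library batch 1 or batch 2 alone, or with the mCherry-Trim21 level as a covariate, 0 genes of any kind were called. These fits therefore say nothing particular about the autophagy genes. None of the 4 pathway lists held a called gene.

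The 2 LOF effects were compared in 1 fit of all 47 embryos, scaled to ERCC, since the experiments share no embryos. For 18 of 34 autophagy genes the TBP effect was lower than the FOXJ3 effect, and for 0 it was higher, against 28.2% and 0.954% of all genes. They were Atg3, Atg7, Atg10, Atg12, Atg16l1 and Atg16l2 of the conjugation systems, Map1lc3a, Map1lc3b, Gabarap and Gabarapl2 of the ATG8 genes, Atg13 and Atg101 of the ULK complex, Pik3c3 and Atg14 of the PI3-kinase, Wipi2, Atg2b and Atg9a of the membrane supply, and the protease Atg4b. The largest difference was that of Atg3, at -3.87 on the log2 scale (adjusted p = 9.6e-09). Gabarap had the smallest of the 18 in significance (-1.24, adjusted p = 0.030). Of the genes that fell upon TBP LOF, Ulk1, Rb1cc1, Atg2a and Atg4d did not pass this comparison, which does not show that both depletions acted alike on them. With TMM scaling the TBP effect was lower for 6 genes and higher for 1, Becn1, against 11.2% and 10.9% of all genes.

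**Figure D4:**
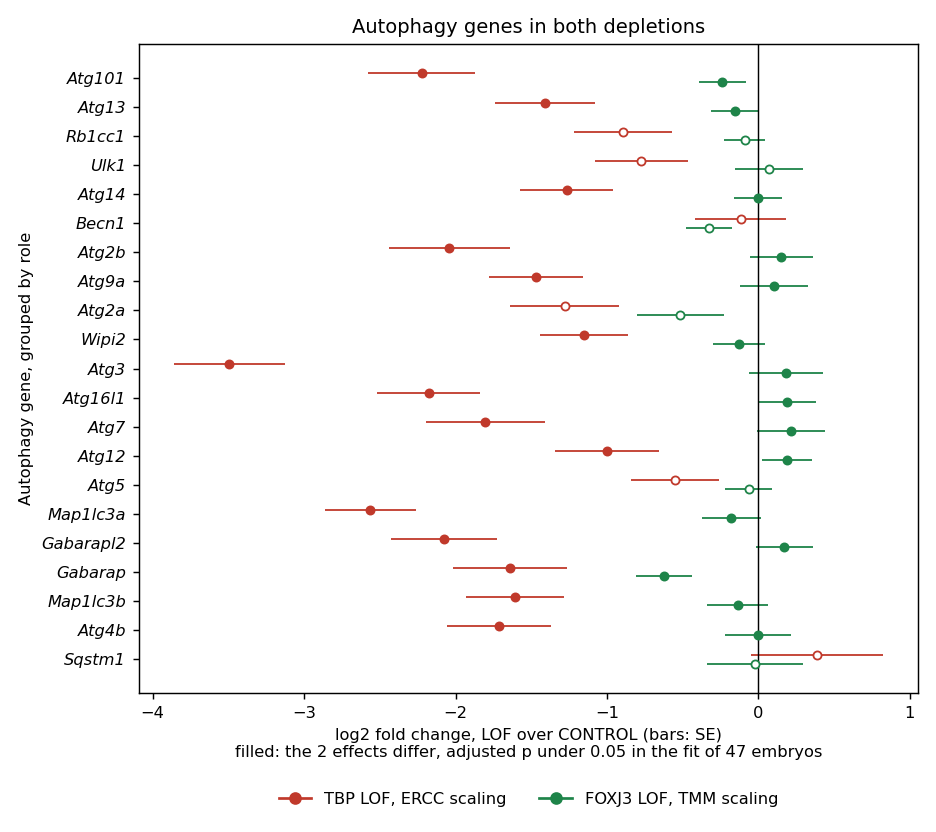
log2 fold changes upon TBP LOF (red, ERCC scaling) and FOXJ3 LOF (green, TMM scaling), with bars for 1 SE, of the 21 autophagy genes with at least 20 normalized counts on average in the TBP experiment. Filled points mark the 15 genes whose 2 effects differed (adjusted p under 0.05, fit of 47 embryos scaled to ERCC throughout), and green points stay between -0.62 and 0.21, with red points at -3.49 to 0.39. The 2 colours are on different scales, with medians over all genes of -0.70 (red) and -0.03 (green).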

How the data were processed

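Single-embryo Smart-seq+5' libraries were analysed from the deposited tables of 5' reads. The authors trimmed reads, kept those with the 5' adaptor, aligned them with STAR 2.7.11a to GRCm38 with the injected construct added, and counted them over GENCODE genes and transposable element families with TEcount. The deposited values are expected counts, which the authors made with TEcount, not normalized, and all were whole numbers, so that rounding changed none. For strand and for reads with several positions, the sources used here name no setting. Deposited tables of single transposable element insertions were not used.

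Symbols and coordinates came from GENCODE M21 (54723 of 54838 gene rows matched). Embryos with at least 500000 reads and 1000 genes, and at most 10% mitochondrial and 15% ERCC reads, were kept (47 of 49). Features with at least 1 read in 25% of the embryos of a fit were tested with edgeR 4.0.16 (R 4.3.3, glmQLFit, two-sided, Benjamini-Hochberg over genes and families, threshold 0.05). TBP embryos were scaled to the 42 ERCC transcripts read in every embryo, by the median of ratios. FOXJ3 embryos were scaled by TMM, with library batch as a term. The 2 effects were compared in 1 fit with a term for the TBP experiment and each FOXJ3 batch and ERCC scaling. Normalized counts are counts divided by these size factors, on a scale of its own in each experiment, and are not divided by gene length. SE is the log2 fold change divided by the root of F. TBP embryos came from several collections that the labels do not mark, so no term was fitted, and where nothing marks separate litters the p-values measure the spread between embryos. Fits were also run on simulated counts in which few genes changed and the ERCC reads were left as they were. Those runs did not probe a fall of many genes or the choice of scale.

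Every member was named under its role. Full values were given for members past the threshold upon TBP LOF with a mean of at least 20 normalized counts and for the member with most reads of each role, and also, by a choice made after their values were seen, for Becn1 and Atg5. Values were given for FOXJ3 of the 3 members of smallest unadjusted p, for the comparison of effects of every member past the threshold, and for each pathway list of the 2 genes of smallest adjusted p in each direction. The members, lists and rules were chosen with earlier results of these data known. The alternatives were other scalings, filters, tools, embryos and covariates. DESeq2 1.42.0 was 1 of them.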

Additional observations from a re-analysis of the deposited data

Results flagged for a closer look

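For 18 of 34 autophagy genes the effect of TBP LOF was lower than that of FOXJ3 LOF in the joint fit of 47 embryos (edgeR, adjusted p under 0.05). Of all genes, 28.2% were lower and 0.954% higher in this comparison, and with filterByExpr 46.1% were lower, beside 19 of 28 autophagy genes. The differences are given here on the log2 scale, TBP effect minus FOXJ3 effect. In the conjugation systems they were -3.87 for Atg3, -3.32 for Atg16l2, -2.70 for Atg10, -2.54 for Atg16l1, -2.20 for Atg7 and -1.38 for Atg12. Among the ATG8 genes they were -2.59 for Map1lc3a, -2.42 for Gabarapl2, -1.66 for Map1lc3b and -1.24 for Gabarap. For the ULK complex Atg101 had -2.17 and Atg13 -1.48. The PI3-kinase genes Pik3c3 and Atg14 had -2.63 and -1.45. Atg2b had -2.38, Atg9a -1.78, Wipi2 -1.21 and the protease Atg4b -1.91. With TMM scaling 6 of the 18 still passed, Atg3, Atg16l1, Map1lc3a, Gabarapl2, Atg101 and Atg2b, where 11.2% of all genes were lower.

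An embryo stood far from the other 8 of its group (Dixon's test, 95% level) in 3 of 40 groups of values looked at. The chance rate of about 1 in 20 holds for normally distributed values in separate groups. Here the values were untransformed counts and the same embryos recur across genes, so this rate is only a rough guide. LOF embryo 6 held 117.1 normalized counts of Atg101, with the next embryo at 65.6. CONTROL embryo 6 held 86.78 of Atg12, with the next at 59.0. CONTROL embryo 1 held 15.16 of Tfeb, with the next at 6.72.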

How the results depend on the processing

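The scale moved the TBP results most. With TMM scaling 2382 genes fell and 2439 rose, and with DESeq2's size factors 2375 and 2550. Both called 10 autophagy genes, 8 lower and 2 higher. The same 7 genes changed sign under both: Becn1 (0.82 and 0.86), Ulk4 (0.53 and 0.55), Atg5 (0.30 and 0.33), Wipi1 (0.27 and 0.28), Tfeb (0.074 and 0.083), Ulk1 (0.034 and 0.053) and Ulk2 (0.033 and 0.052). Without a filter on low counts 460 of 28073 genes rose (1.64%) and with edgeR's filterByExpr 122 of 7683 (1.59%), beside 1.4% in the main fit. Leaving out each TBP embryo in turn gave 18 to 23 autophagy genes lower, beside 27.2% to 31.3% of all genes. DESeq2 called 23 lower (30.7% of all genes), no filter 20 (21.7%), filterByExpr 21 of 24 (52.7%), genes alone 22 (29.8%) and all 19 embryos 23 (29.9%).

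Replicate numbers common to both groups did not pair the embryos (correlations of their deviations -0.062 to 0.168 in the TBP and -0.233 to 0.284 in the FOXJ3 experiment). With a replicate block on these numbers 18 autophagy genes and 24% of all genes fell upon TBP LOF, Wipi1 stood at 0.27, and upon FOXJ3 LOF 0 genes were called. The block fits kept only embryos whose number occurs in both groups and so held fewer embryos. The parts of the block and of the fewer embryos in these counts were not tested. The calls lost under the block were those of Atg10 (log2 fold change -1.50, adjusted p = 0.38), Atg12 (-0.89, adjusted p = 0.056), Atg16l2 (-1.36, adjusted p = 0.37) and Ulk1 (-0.68, adjusted p = 0.087). Without a filter on low counts Atg10 and Ulk1 were lost (adjusted p = 0.072 and 0.065).

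For FOXJ3, DESeq2 and the fit without a filter called 4 genes, filterByExpr 1, either batch alone 0, and the mCherry-Trim21 covariate 0, with 1 to 4 when an embryo was left out. 0 autophagy genes were called in all these fits. In the comparison of the effects TMM scaling called 7 autophagy genes, 6 lower and 1 higher (11.2% and 10.9% of all genes), filterByExpr 19 of 28 lower (46.1%) and FOXJ3 batch 1 alone 20 lower (25.9%). Medians of the summed level of the autophagy genes moved by less than 1 SD in every group without an embryo, with all embryos, or within a FOXJ3 batch, settings chosen after seeing the data. Ulk2, which did not pass in the report, passed with DESeq2 and with filterByExpr (log2 fold change -0.92 and -0.91, adjusted p = 0.026 and 0.033) and in 1 of the 18 fits without an embryo. Gabarapl1, which did not pass either, passed with all 19 TBP embryos (log2 fold change -2.64, adjusted p = 0.033) and in 5 of the 18 fits without an embryo.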
